A study of Mus musculus with 9 samples.

Results

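The motile cilia axoneme was followed through 58 named mouse genes, chosen by symbol from the proteins that build the microtubule core of a beating cilium, out of 55704 genes in the expression table. They were sorted into 5 structural parts: dynein arms and their assembly with 21 genes, radial spokes with 8, the nexin-dynein complex and ruler with 8, the central pair with 5, and a remainder of 16. All 58 symbols were found once among the genes of the table. RNA came from neural stem cells (NSCs) of the subventricular zone of adult C57BL/6 mice, with female and male animals pooled in each isolation, expanded for several passages as cultured cells with no genetic alteration named. The 9 libraries formed 3 groups of 3: proliferating NSCs in 20 ng/mL bFGF with 20 ng/mL EGF (bFGF/EGF, day 0), NSCs held for 6 days in 20 ng/mL bFGF with 20 ng/mL BMP4 (bFGF/BMP4), and NSCs held for 6 days in 20 ng/mL BMP4 without bFGF (BMP4). A difference from bFGF/EGF therefore held both the factors and 6 days in culture, and these cannot be told apart, whereas BMP4 and bFGF/BMP4 shared day and BMP4. No label says whether the 3 libraries of a group came from separate cultures or isolations, so the p-values measure the spread between these libraries only.

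In a motile cilium, microtubule doublets carry outer and inner dynein arms, the motors whose strokes slide neighbouring doublets. Radial spokes reach inward to a central pair of microtubules, the nexin-dynein regulatory complex links doublets and turns sliding into bending, and a molecular ruler sets the spacing of these units. In the adult ventricle wall, ependymal cells bear tufts of such cilia, while NSCs carry a solitary primary cilium that lacks the central pair and the axonemal dyneins. The transcription factor FOXJ1, with RFX factors, switches on many axonemal genes.

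The axoneme genes were expressed at low levels in all groups and were mostly higher in BMP4-treated NSCs. Levels are given as FPKM, fragment numbers scaled by transcript length and by the size of the library, which allows levels of different genes to be compared. The summed FPKM of the 58 genes was 31.1 ± 0.855 for bFGF/EGF libraries, rose little for bFGF/BMP4, to 34.6 ± 1.02, and reached 123 ± 13.3 for BMP4 (SD, n = 3 each; no test was run on the sum). The BMP4 libraries, from 108 to 134, all lay above the other 6, which ranged from 30.1 to 35.7. *Tppp3* alone held much of that sum, yet without it the BMP4 libraries still summed to 91.2 to 99.4, against 29.8 to 34.6 in the others. In bulk RNA, more cells expressing a gene and more RNA per expressing cell cannot be told apart.

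**Figure D1:**
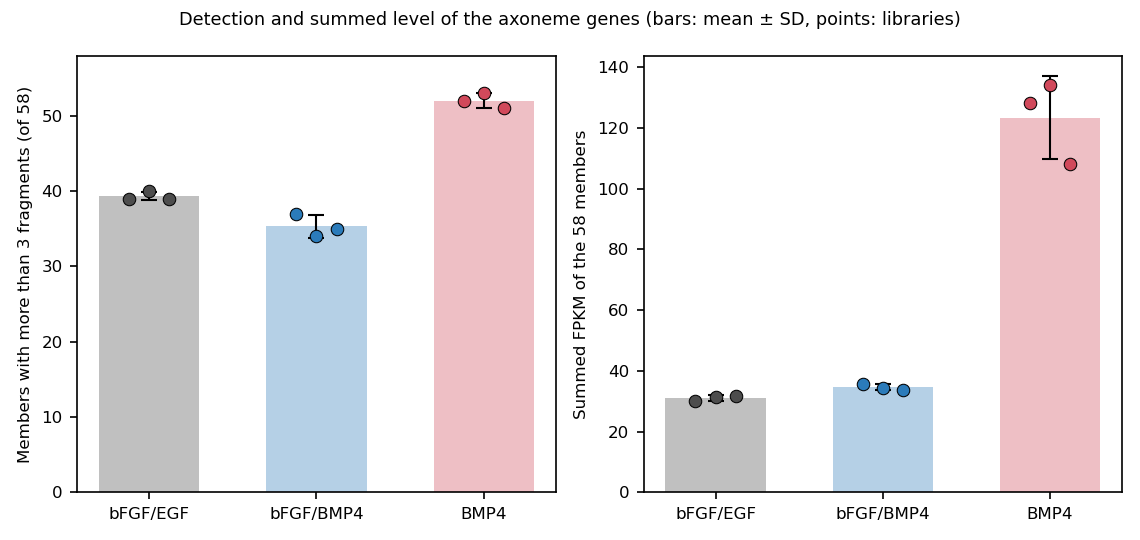
Left, number of the 58 axoneme genes with more than 3 fragments in a library; right, summed FPKM of the 58 genes. Bars are group means, error bars SD over 3 libraries and points single libraries; the BMP4 libraries reach 51 to 53 genes and 108 to 134 FPKM.

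Fragments on genes numbered 15895146 to 17422846 per library, and a gene was taken as detected in a library above 3 fragments. In BMP4, 51 to 53 of the 58 genes passed that limit in a library, against 39 to 40 in bFGF/EGF and 34 to 37 in bFGF/BMP4. At or under 3 fragments in every library of the group stood 14 genes for bFGF/EGF and 15 for bFGF/BMP4, but only 2 for BMP4, namely *Spag16* and *Spag17* of the central pair. *Spag17* was at or under this limit in all 9 libraries, with a highest value of 2 fragments. A mean of at least 1 FPKM was reached by 26 genes in BMP4, by 12 in bFGF/BMP4 and by 6 in bFGF/EGF.

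**Figure D2:**
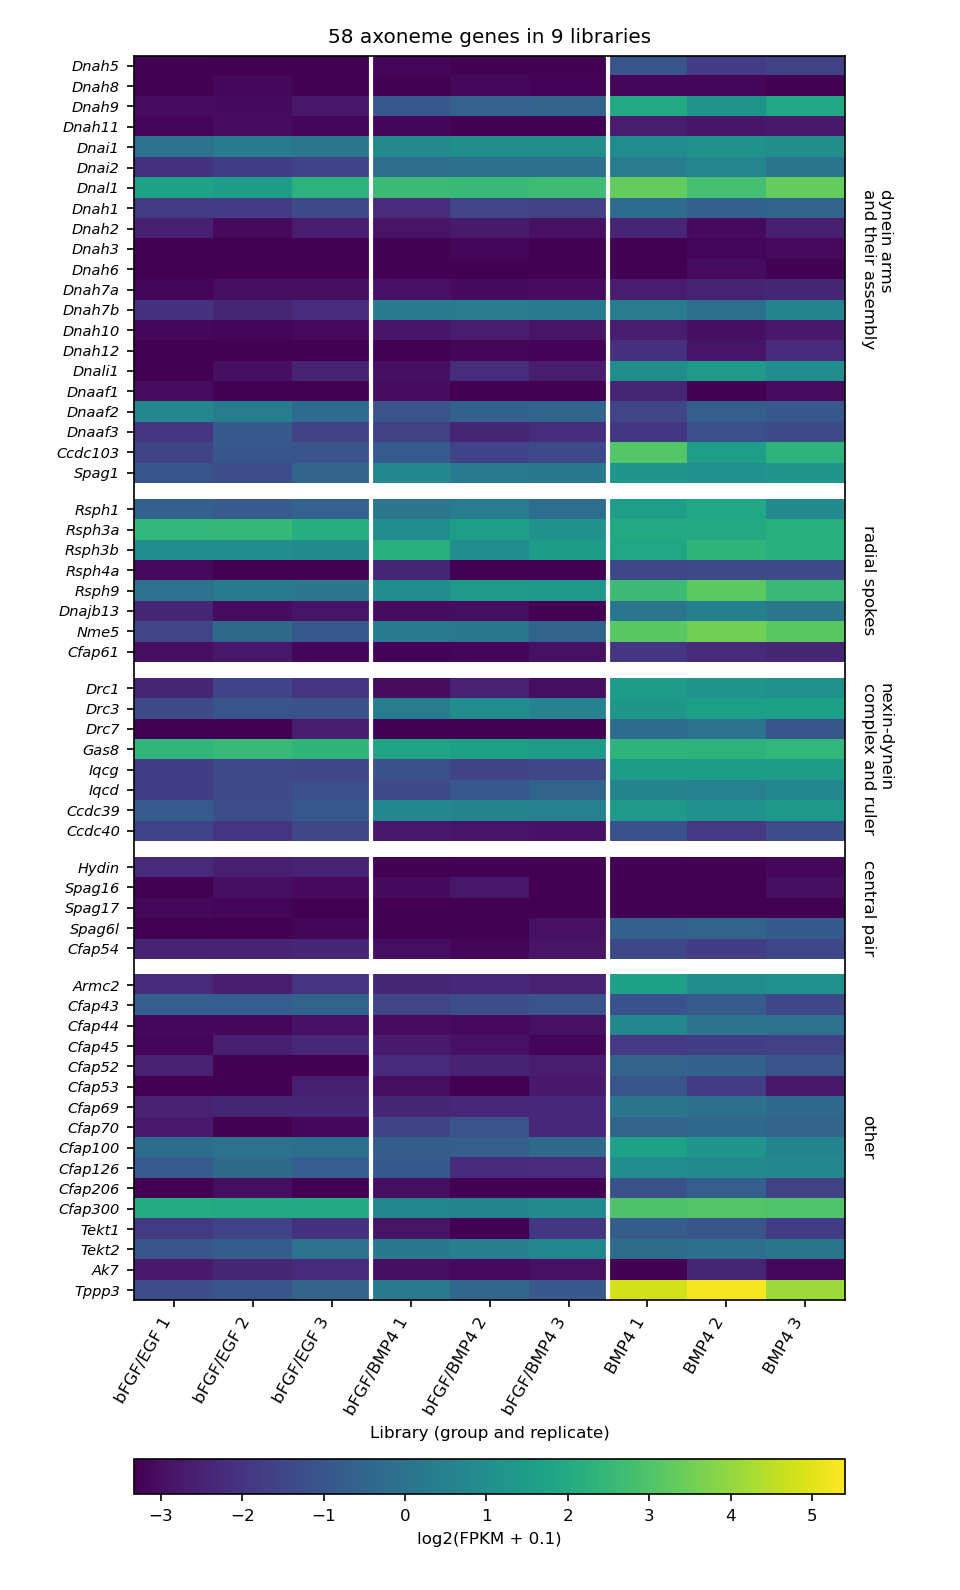
Colour gives log2(FPKM + 0.1) for each of the 58 axoneme genes (rows, by structural part) in each of the 9 libraries (columns, by group and replicate). Most rows are brightest in the 3 BMP4 columns, while *Hydin* and *Dnaaf2* have their highest values in bFGF/EGF.

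Differences were tested with limma on log2(FPKM + 0.1), with Benjamini-Hochberg adjustment over the 20207 genes whose mean FPKM reached 0.1, and a gene was called at an adjusted p of at most 0.05 and a fold of at least 2. Of the 58 axoneme genes 41 entered this test, and 17 lay under its level filter. Because values are raised by 0.1 before the logarithm, a log2 fold change understates the change of low genes. Where every library of a group had at most 3 fragments, the ratio of pooled fragments with its exact 95% counting interval is given instead, which covers counting error and not the spread between libraries. A second test, limma-voom on fragment numbers rebuilt from the FPKM values, took in 55 of the 58 genes and was added after the data had been seen.

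The first comparison asked how withdrawal of bFGF from BMP4 medium bears on these genes. Of the 41 axoneme genes tested, 26 (63.4%) were higher in BMP4-treated than in bFGF/BMP4-treated NSCs and 0 lower, where 8.41% of all tested genes were higher and 5.14% lower. Of the 41 genes, 10 passed the level filter with means under 0.1 FPKM in both other groups, so they had to lie higher in BMP4. All 10 were among the 26, the other 31 tested genes held 16, and 26 of all 58 genes is 44.8%. The 16 are not free of the filter, as *Drc1* and *Armc2* also entered the test through their BMP4 values. Their means were 0.157 and 0.108 FPKM in bFGF/EGF and 0.0405 and 0.0873 in bFGF/BMP4. In the lower direction 0 members had an unadjusted p under 0.05 with limma, and 0 with limma-voom. limma-voom called 33 higher, with a background of 9.33%, and these held all 26 and 7 more: *Dnah5*, *Dnah11*, *Dnah7a*, *Dnah12*, *Cfap61*, *Cfap45* and *Cfap70*. The median log2 fold change over all 58 genes was 1.16, against 0.00 over all genes tested, and 1.45 when genes at the detection limit in 1 group took their fragment ratio or bound.

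By structural part, the calls were 4 of 21 genes for dynein arms and their assembly, 5 of 8 for radial spokes, 5 of 8 for the nexin-dynein complex and ruler, 2 of 5 for the central pair and 10 of 16 for the remainder. Of all tested genes, 8.41% were higher. The 10 genes that had to lie higher in BMP4 included *Dnali1* in the dynein part, *Rsph4a* and *Dnajb13* in the spokes and *Drc7* in the nexin-dynein part. The rest of the 10 were *Spag6l* and *Cfap54*, the only calls of the central pair, and *Cfap44*, *Cfap52*, *Cfap69* and *Cfap206* in the remainder. The median log2 fold changes were 0.51, 1.45, 1.46, 0.06 and 1.72 in the same order, over all genes of each part. With fragment ratios or bounds for genes at the detection limit they were 0.59, 1.45, 1.46, 1.49 and 1.98, so that the central pair's value rests on how its undetected genes are treated. In the dynein part only 11 of 21 genes, and in the central pair 2 of 5, were expressed highly enough to be tested, so the shares of the parts are not comparable and no difference between parts was tested.

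**Figure D3:**
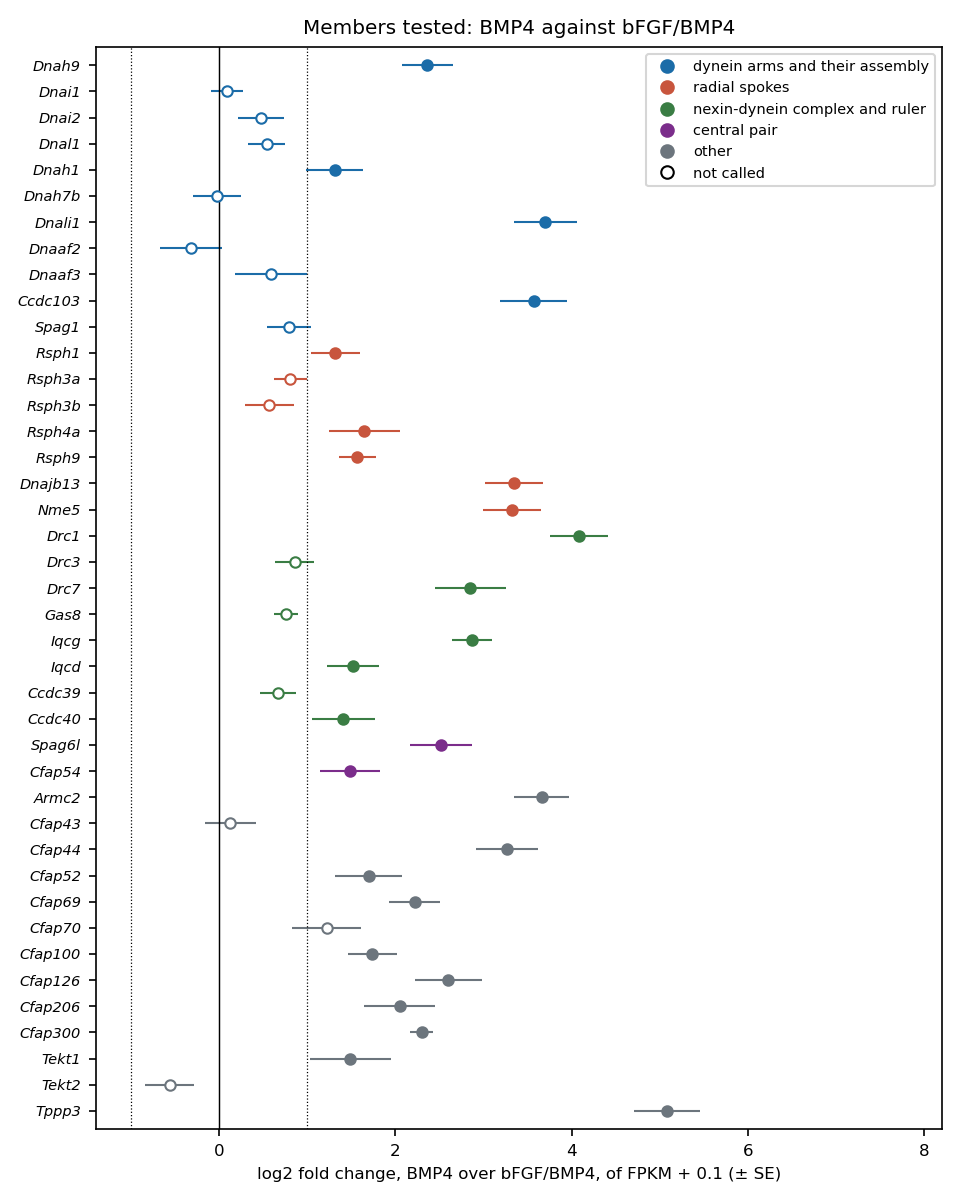
log2 fold change of FPKM + 0.1 in BMP4 over bFGF/BMP4 (horizontal axis, with SE) for the 41 axoneme genes tested, coloured by structural part. Filled points were called; the dotted lines mark the fold threshold, and the 26 filled points all lie to the right, from *Dnah1* at 1.31 to *Tppp3* at 5.08.

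Outer dynein arms carry the motors that set beat frequency. Their heavy chain *Dnah9*, found in distal arms, measured 0.0221, 0.0198 and 0.0461 FPKM in bFGF/EGF, 0.418, 0.572 and 0.597 in bFGF/BMP4, and 3.79, 2.17 and 3.59 in BMP4. The 3 groups did not overlap, and each step was called. The log2 fold change was 2.36 ± 0.29 (SE; adjusted p = 0.00032, limma) for BMP4 over bFGF/BMP4 and 2.27 ± 0.29 (adjusted p = 0.00014) for bFGF/BMP4 over bFGF/EGF. Both comparisons use the bFGF/BMP4 libraries and so are not independent.

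Several members under the level filter are given by their fragments, and these were singled out after their values were seen. *Dnah5*, the heavy chain present along the whole row of outer arms, had 97, 49 and 59 fragments in the BMP4 libraries, 2, 1 and 1 in bFGF/BMP4 and 1, 0 and 0 in bFGF/EGF. Pooled over libraries it was 48.3-fold higher in BMP4 than in bFGF/BMP4 (interval 18.6 to 179), and limma-voom gave an adjusted p of 1e-05. *Dnah11*, the proximal heavy chain, had 14, 10 and 12 fragments in BMP4 and at most 2 in a bFGF/BMP4 library, a ratio of 8.48 (interval 3.04 to 32.8). The testis-type heavy chain *Dnah8* had 1 to 6 fragments in each library of every group, and no difference was detectable at this depth.

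The smaller outer arm subunits had other profiles. The light chain *Dnal1* had the highest level of the dynein part, at 3.24, 2.74 and 4.75 FPKM in bFGF/EGF, 6.02, 5.82 and 6.43 in bFGF/BMP4, and 9.96, 6.91 and 10.1 in BMP4. Its groups did not overlap, but BMP4 over bFGF/BMP4 was 0.54 ± 0.21 on the log2 scale (adjusted p = 0.11, limma), short of the threshold. BMP4 over bFGF/EGF was called, at 1.32 ± 0.21 (adjusted p = 0.00047, limma). The intermediate chain *Dnai2* was called in bFGF/BMP4 over bFGF/EGF (1.63 ± 0.26, adjusted p = 0.00053, limma) and in BMP4 over bFGF/EGF (2.11 ± 0.26, adjusted p = 7.5e-05), not in BMP4 over bFGF/BMP4. Its partner *Dnai1* had means of 0.971, 1.81 and 1.93 FPKM in bFGF/EGF, bFGF/BMP4 and BMP4 and was called in no comparison.

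Inner dynein arms shape the bend. The light chain *Dnali1* had 0, 1 and 3 fragments in bFGF/EGF, 1, 4 and 2 in bFGF/BMP4 and 67, 87 and 64 in BMP4, or 1.93, 2.52 and 1.82 FPKM in BMP4 and at most 0.122 FPKM elsewhere. Every BMP4 library lay above the other 6, by 3.70 ± 0.36 over bFGF/BMP4 on the log2 scale (adjusted p = 6.8e-05, limma), and pooled fragments were 56.2-fold above bFGF/EGF (interval 21.7 to 208). The heavy chain *Dnah1* measured 0.180, 0.194 and 0.278 FPKM in bFGF/EGF, 0.115, 0.250 and 0.224 in bFGF/BMP4 and 0.722, 0.559 and 0.586 in BMP4. BMP4 lay above both other groups, which overlapped, and was called higher than bFGF/BMP4 (1.31 ± 0.32, adjusted p = 0.014, limma). Of the *Dnah1* exon bases, 9.26% overlap *Bap1* on the opposite strand, whose highest value was 31.6 FPKM, and the share of reads from it was not tested.

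*Dnah7a* and *Dnah7b* encode near-identical inner arm heavy chains. Their canonical proteins of 4024 residues were 96.4% identical and their coding sequences 97.0%, and another copy, *Dnah7c*, was 96.2% and 96.9% identical to them in protein, so reads may be split between the copies and each value is uncertain. *Dnah7b* (chr1:46105475-46412710, mm39) measured 0.141, 0.0886 and 0.116 FPKM in bFGF/EGF, 1.07, 1.17 and 1.11 in bFGF/BMP4, and 1.21, 0.779 and 1.42 in BMP4. It rose from bFGF/EGF to bFGF/BMP4 by 2.51 ± 0.27 (log2; adjusted p = 4.8e-05, limma), whereas BMP4 and bFGF/BMP4 overlapped (log2 fold change -0.02 ± 0.27, adjusted p = 0.99). *Dnah7a* (chr1:53436165-53746005) had 13, 17 and 19 fragments in BMP4, 7, 4 and 4 in bFGF/BMP4 and 2, 5 and 6 in bFGF/EGF, and limma-voom called it higher in BMP4 than in bFGF/BMP4 (adjusted p = 0.039). The difference between the copies was not tested.

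Of the remaining inner arm heavy chains, *Dnah12* had 27, 8 and 21 fragments in BMP4, 0, 2 and 1 in bFGF/BMP4 and 0 in each bFGF/EGF library. It was 17.6-fold higher in BMP4 than in bFGF/BMP4 (interval 5.72 to 87.9) and at least 6.42-fold higher than in bFGF/EGF, taking 3 fragments per library as the limit. *Dnah10* had 4, 3 and 5 fragments in bFGF/EGF, 11, 15 and 9 in bFGF/BMP4 and 15, 7 and 14 in BMP4, so that both day 6 groups lay above day 0. *Dnah2* ranged over 4 to 21 fragments with all groups overlapping, and *Dnah3* and *Dnah6* had at most 5 fragments in any library.

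Dynein arms are preassembled in the cytoplasm with the help of dedicated factors. *Ccdc103*, whose product helps attach the arms, measured 0.249, 0.401 and 0.389 FPKM in bFGF/EGF, 0.461, 0.241 and 0.288 in bFGF/BMP4, and 8.37, 2.81 and 4.91 in BMP4. Every BMP4 library lay above the other 6, with a log2 fold change of 3.57 ± 0.38 over bFGF/BMP4 (adjusted p = 0.00014, limma). In the GENCODE vM39 annotation 30.8% of its exon bases also belong to *Fam187a* on the same strand and 5.61% to *Eftud2* on the opposite strand. The highest values of these genes were 5.12 and 44.9 FPKM, and the share of *Ccdc103* reads from them was not tested. *Spag1*, a cochaperone of arm assembly, was called in bFGF/BMP4 over bFGF/EGF (1.35 ± 0.25, adjusted p = 0.0013, limma), while BMP4 over bFGF/BMP4, at 0.79 ± 0.25, was under the fold threshold.

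*Dnaaf2*, a chaperone cofactor, had its highest values in proliferating NSCs, with 1.58, 1.16 and 0.735 FPKM in bFGF/EGF, 0.367, 0.558 and 0.622 in bFGF/BMP4 and 0.254, 0.528 and 0.411 in BMP4. It fell by 1.32 ± 0.35 on the log2 scale from bFGF/EGF to BMP4 (adjusted p = 0.0087, limma), and was the member called lower in that comparison. Of its exon bases, 26.4% overlap the noncoding gene *9330151L19Rik* on the opposite strand. *Dnaaf3* showed overlapping groups with means of 0.281, 0.145 and 0.266 FPKM, and *Dnaaf1* had at most 4 fragments in any library.

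Radial spokes relay signals from the central pair to the dyneins. *Nme5*, a spoke subunit with a nucleoside diphosphate kinase domain, had 0.255, 0.712 and 0.441 FPKM in bFGF/EGF, 1.13, 1.02 and 0.589 in bFGF/BMP4 and 8.86, 11.6 and 8.88 in BMP4. BMP4 did not overlap the others, and the log2 fold change over bFGF/BMP4 was 3.32 ± 0.33 (adjusted p = 7.5e-05, limma). *Dnajb13*, a spoke neck cochaperone, had 4, 1 and 2 fragments in bFGF/EGF, 1, 1 and 0 in bFGF/BMP4 and 43, 56 and 45 in BMP4, the last being 0.969, 1.27 and 0.999 FPKM. It was 67.9-fold higher in BMP4 than in bFGF/BMP4 (interval 18.4 to 566), and 30.6% of its exon bases overlap *Ucp2* on the opposite strand, whose highest value was 1.32 FPKM.

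The spoke head genes rose as well. *Rsph4a* had 1, 0 and 0 fragments in bFGF/EGF, 5, 0 and 0 in bFGF/BMP4 and 16, 18 and 17 in BMP4, or 0.270, 0.304 and 0.282 FPKM in BMP4, with a log2 fold change of 1.65 ± 0.40 over bFGF/BMP4 (adjusted p = 0.015, limma). *Rsph9* measured 0.844, 1.07 and 0.989 FPKM in bFGF/EGF, 1.86, 2.56 and 2.42 in bFGF/BMP4, and 6.19, 9.02 and 5.90 in BMP4, with no overlap between groups. Its log2 fold changes were 1.57 ± 0.21 (adjusted p = 0.00047, limma) for BMP4 over bFGF/BMP4 and 1.15 ± 0.21 (adjusted p = 0.0012) for bFGF/BMP4 over bFGF/EGF. Of its exon bases, 25.8% overlap *Mrps18a* on the opposite strand, whose highest value was 15.8 FPKM. *Rsph1* measured 0.557, 0.461 and 0.577 FPKM in bFGF/EGF, 0.998, 1.19 and 0.793 in bFGF/BMP4 and 2.87, 3.56 and 1.72 in BMP4 (1.32 ± 0.28 over bFGF/BMP4, adjusted p = 0.0074), again with 3 separate groups. *Dnah9* and *Rsph9* were the 2 members called higher in all 3 comparisons.

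*Rsph3a* and *Rsph3b* encode a spoke stalk protein in near-identical copies, with 98.6% identity over 516 aligned residues and 99.2% over the coding sequence, so their values are uncertain too. *Rsph3a* (chr17:8164398-8198656) measured 5.43, 5.45 and 4.19 FPKM in bFGF/EGF, 1.80, 2.88 and 2.10 in bFGF/BMP4 and 3.88, 3.71 and 4.32 in BMP4. bFGF/BMP4 lay below both other groups, and *Rsph3a* fell by 1.14 ± 0.19 on the log2 scale from bFGF/EGF to bFGF/BMP4 (adjusted p = 0.00079, limma). Without bFGF/BMP4 replicate 1 that change was -0.99, under the fold threshold. *Rsph3b* (chr17:7171598-7216144) measured 1.81, 1.85 and 1.65 FPKM in bFGF/EGF, 4.54, 1.86 and 2.69 in bFGF/BMP4 and 3.46, 5.10 and 4.36 in BMP4, and was called in BMP4 over bFGF/EGF alone (1.22 ± 0.28, adjusted p = 0.0045, limma). *Cfap61*, of a spoke-associated complex, had 28, 18 and 16 fragments in BMP4, 1 to 5 in bFGF/BMP4 and 2 to 8 in bFGF/EGF.

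All 8 genes of the nexin-dynein complex and ruler passed 3 fragments in each BMP4 library. All 8 were higher in BMP4 than in bFGF/BMP4 at an adjusted p of at most 0.05 (limma, no fold threshold). Of the 20207 genes tested, 2474 were higher at that limit. *Drc1* and *Drc7* entered the test through their BMP4 values. *Drc1*, the scaffold of the complex, had 4, 10 and 7 fragments in bFGF/EGF, 1, 3 and 1 in bFGF/BMP4 and 117, 94 and 87 in BMP4, the last being 2.69, 2.16 and 1.97 FPKM. BMP4 was 56.2-fold above bFGF/BMP4 (interval 23.8 to 174), and bFGF/EGF was 3.84-fold above bFGF/BMP4 (interval 1.41 to 13.0). *Drc7*, a linker subunit, had 35, 41 and 19 fragments in BMP4, 0 in each bFGF/BMP4 library and 0, 0 and 3 in bFGF/EGF, which makes it at least 9.95-fold higher in BMP4 than in bFGF/BMP4.

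*Iqcg* (also DRC9) measured 0.200, 0.277 and 0.266 FPKM in bFGF/EGF, 0.343, 0.243 and 0.265 in bFGF/BMP4 and 2.74, 2.73 and 2.60 in BMP4 (2.87 ± 0.23 over bFGF/BMP4, adjusted p = 2.7e-05, limma). *Iqcd* (also DRC10) measured 0.210, 0.301 and 0.337 FPKM in bFGF/EGF, 0.296, 0.427 and 0.607 in bFGF/BMP4 and 1.39, 1.29 and 1.59 in BMP4 (1.52 ± 0.29 over bFGF/BMP4, adjusted p = 0.0039). In both, BMP4 lay apart from the other groups. Their exons overlap genes on the opposite strand. *Lrch3* (highest value 6.81 FPKM) covers 42.4% of *Iqcg* exon bases. *Rita1* (6.53 FPKM) covers 36.2% and *Tpcn1* (21.2 FPKM) 14.8% of those of *Iqcd*. *Gas8* (also DRC4), which had the highest mean level of the complex, measured 5.20, 5.89 and 5.09 FPKM in bFGF/EGF, 3.34, 2.97 and 2.61 in bFGF/BMP4 and 4.97, 4.91 and 5.36 in BMP4. bFGF/BMP4 lay below both other groups, yet the difference of 0.76 ± 0.14 from BMP4 (adjusted p = 0.0029, limma) did not reach the fold threshold.

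The ruler is formed by the products of *Ccdc39* and *Ccdc40* together. *Ccdc39* measured 0.466, 0.314 and 0.433 FPKM in bFGF/EGF, 1.56, 1.43 and 1.34 in bFGF/BMP4 and 2.51, 2.11 and 2.43 in BMP4, and rose by 1.62 ± 0.20 from bFGF/EGF to bFGF/BMP4 (log2; adjusted p = 0.00012, limma). *Ccdc40* measured 0.234, 0.157 and 0.272 in bFGF/EGF, 0.0516, 0.0432 and 0.0338 in bFGF/BMP4 and 0.357, 0.174 and 0.332 in BMP4. So bFGF/BMP4 lay above bFGF/EGF for *Ccdc39* and below it for *Ccdc40*. *Ccdc40* fell by 1.15 ± 0.36 from bFGF/EGF to bFGF/BMP4 (adjusted p = 0.022) and was 1.41 ± 0.36 higher in BMP4 than in bFGF/BMP4 (adjusted p = 0.018). The fall of *Ccdc40* had an adjusted p of 0.053 without bFGF/EGF replicate 1 and 0.053 without bFGF/EGF replicate 3, and *Ccdc39* shares 24.3% of its exon bases with *Ttc14* on the opposite strand. *Drc3*, another subunit of the complex, had means of 0.343, 1.47 and 2.72 FPKM and a call in bFGF/BMP4 over bFGF/EGF (1.81 ± 0.22, adjusted p = 9.9e-05). For BMP4 over bFGF/BMP4 it measured 0.86 ± 0.22, and 1.03, past the threshold, without bFGF/BMP4 replicate 2.

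**Figure D4:**
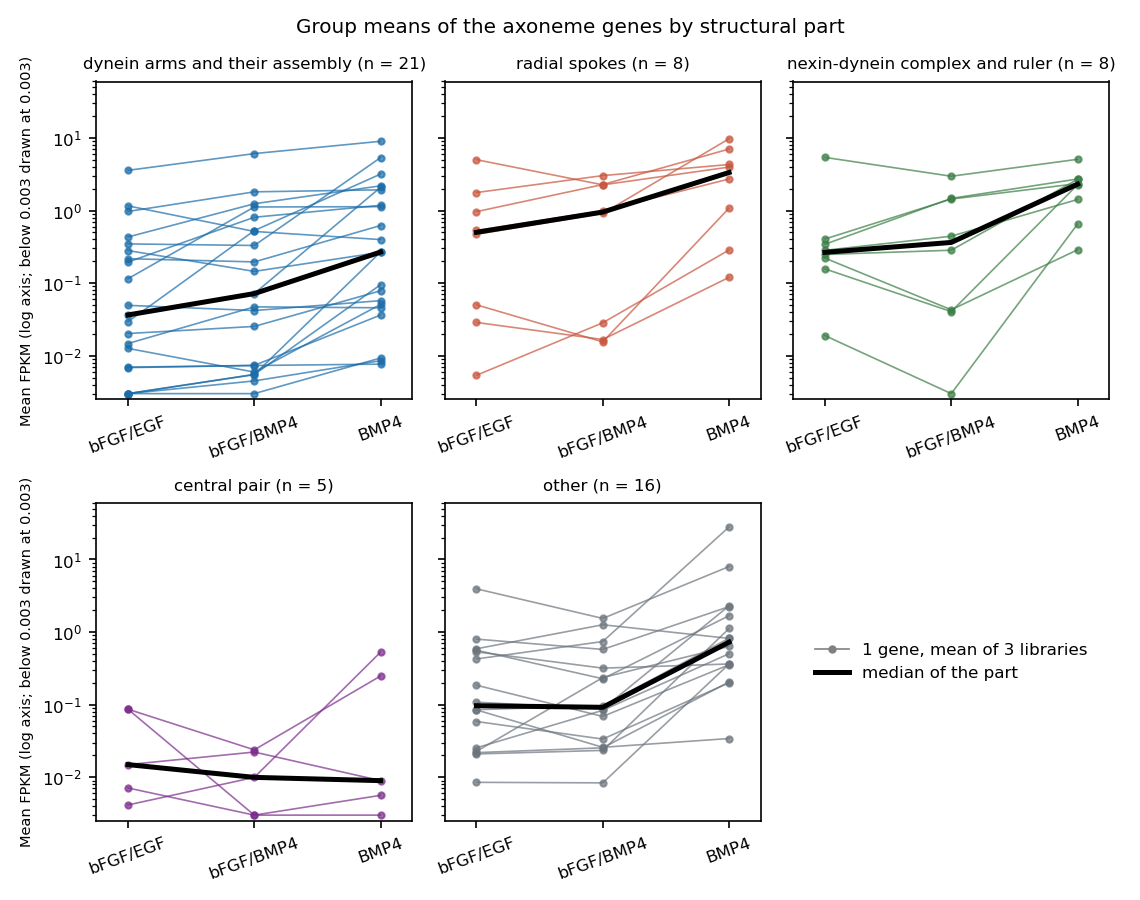
Mean FPKM (log axis; values under 0.003 are drawn at 0.003) of each axoneme gene in the 3 groups, by structural part, with the median of the part in black. The medians of the dynein part, the spokes, the nexin-dynein complex and the remainder are highest in BMP4, whereas that of the central pair, 3 of whose 5 genes were at or near the detection limit there, is not.

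The central pair was expressed at the lowest level of the 5 parts. Its 5 genes summed to 0.184 to 0.207 FPKM in bFGF/EGF, 0.0439 to 0.0670 in bFGF/BMP4 and 0.762 to 0.817 in BMP4. *Spag6l*, a central apparatus scaffold, had 0, 0 and 1 fragments in bFGF/EGF, 0, 0 and 2 in bFGF/BMP4 and 40, 44 and 34 in BMP4 (0.540, 0.596 and 0.452 FPKM), a ratio of 55.6 over bFGF/BMP4 (interval 15.1 to 465). *Cfap54*, of a projection of the pair, measured 0.0843, 0.0820 and 0.0927 FPKM in bFGF/EGF, 0.0255, 0.00890 and 0.0371 in bFGF/BMP4 and 0.273, 0.202 and 0.269 in BMP4. Its groups did not overlap, bFGF/BMP4 being lowest, and it was called in BMP4 over bFGF/BMP4 (1.49 ± 0.34, adjusted p = 0.012, limma).

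*Hydin*, a very large central pair protein, had its highest values in proliferating NSCs. It had 33, 19 and 27 fragments in bFGF/EGF, 0, 1 and 0 in bFGF/BMP4 and 1, 0 and 4 in BMP4. Its pooled level in bFGF/EGF was 72.2-fold higher than in bFGF/BMP4 (interval 12.6 to 2886), and limma-voom called it lower in both day 6 groups, with adjusted p of 5.3e-05 for bFGF/BMP4 and 7.8e-05 for BMP4. *Spag16*, needed for central apparatus stability, had at most 5 fragments in any library. Of the 5 central pair genes, *Spag6l* and *Cfap54* thus passed 3 fragments in each BMP4 library, *Hydin* in 1, and *Spag16* and *Spag17* in none.

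The remainder holds, among others, microtubule inner proteins, tektins and factors tied to arms or spokes. *Tppp3*, a tubulin-binding protein, had the largest log2 fold change of the 41 genes tested. It measured 0.318, 0.376 and 0.582 FPKM in bFGF/EGF, 1.15, 0.635 and 0.441 in bFGF/BMP4, and 28.3, 39.0 and 17.2 in BMP4, a log2 fold change of 5.08 ± 0.37 over bFGF/BMP4 (adjusted p = 1.4e-05, limma). The BMP4 libraries spread widely among themselves but all lay above the other 6. *Armc2*, needed for central pair assembly in sperm, measured 0.106, 0.0616 and 0.157 FPKM in bFGF/EGF, 0.0866, 0.0997 and 0.0757 in bFGF/BMP4 and 2.96, 1.92 and 2.03 in BMP4 (3.66 ± 0.31 over bFGF/BMP4, adjusted p = 3.1e-05).

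*Cfap44*, part of the tether of an inner arm, had 2, 2 and 5 fragments in bFGF/EGF, 3, 2 and 4 in bFGF/BMP4 and 217, 122 and 123 in BMP4 (1.59, 0.896 and 0.887 FPKM), with a log2 fold change of 3.27 ± 0.35 over bFGF/BMP4 (adjusted p = 0.00013, limma). Its partner in the tether, *Cfap43*, had means of 0.534, 0.318 and 0.363 FPKM and was called in no comparison. Of the *Cfap43* exon bases 9.94% overlap *Sfr1*, a gene on the opposite strand.

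A pair of genes of this part had their lowest mean in bFGF/BMP4 and were called there. *Cfap300*, an assembly factor, measured 4.03, 3.85 and 3.95 FPKM in bFGF/EGF, 1.52, 1.39 and 1.71 in bFGF/BMP4 and 7.70, 8.30 and 7.96 in BMP4. The 3 groups were fully apart: *Cfap300* fell by 1.30 ± 0.13 from bFGF/EGF to bFGF/BMP4 (log2; adjusted p = 2.6e-05, limma) and was 2.30 ± 0.13 higher in BMP4 than in bFGF/BMP4 (adjusted p = 4.1e-06). *Cfap126*, a doublet protein, measured 0.464, 0.713 and 0.510 FPKM in bFGF/EGF, 0.456, 0.110 and 0.115 in bFGF/BMP4 and 1.84, 1.67 and 1.54 in BMP4 (2.60 ± 0.38 over bFGF/BMP4, adjusted p = 0.00089). It fell by 1.16 ± 0.38 from bFGF/EGF to bFGF/BMP4 (adjusted p = 0.03), a call lost without bFGF/BMP4 replicate 2 (-0.92) or 3 (-0.94), or, at adjusted p of 0.10 and 0.058, without bFGF/EGF replicate 2 or 3. It was also lost with no level filter (adjusted p = 0.06, limma) and with only the 2 groups compared in the fit (adjusted p = 0.08).

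*Cfap52*, *Cfap69*, *Cfap100* and *Cfap206* of this part were called higher in BMP4 than in both other groups, with log2 fold changes over bFGF/BMP4 of 1.70, 2.22, 1.74 and 2.05. *Tekt1*, a filament protein inside the doublet, was called in BMP4 over bFGF/BMP4 (1.49 ± 0.46, adjusted p = 0.044, limma). It lost the call when any of 7 of the 9 libraries was left out, all except bFGF/BMP4 replicate 3 and BMP4 replicate 3, with log2 fold changes of 1.17 to 1.88 over the 9 omissions, and also with no level filter (adjusted p = 0.059, limma) and with only the 2 groups compared in the fit (adjusted p = 0.081). *Tekt2*, its relative, had its highest values in bFGF/BMP4, at 0.402, 0.499 and 0.864 FPKM in bFGF/EGF, 1.05, 1.24 and 1.5 in bFGF/BMP4 and 0.746, 0.780 and 0.925 in BMP4. Its call over bFGF/EGF (1.03 ± 0.28, adjusted p = 0.013) was lost without bFGF/BMP4 replicate 3 (0.90), bFGF/EGF replicate 1 (0.83) or bFGF/EGF replicate 2 (0.96).

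*Cfap70*, an outer arm factor, was called in bFGF/BMP4 over bFGF/EGF (1.39 ± 0.39, adjusted p = 0.015, limma). Without bFGF/BMP4 replicate 2 this was 1.11 (adjusted p = 0.053), while BMP4 over bFGF/BMP4 became 1.49 (adjusted p = 0.036). *Cfap45*, a microtubule inner protein, had 16, 19 and 21 fragments in BMP4, 1 to 5 in bFGF/BMP4 and 1 to 10 in bFGF/EGF. *Cfap53*, tied to outer arm docking, had 16, 8 and 2 fragments in the BMP4 libraries and at most 3 elsewhere, and *Ak7*, an adenylate kinase, had at most 8 fragments in any library.

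The second comparison asked how NSCs in bFGF/BMP4 differ from proliferating NSCs. Of the 41 axoneme genes tested, 9 were higher (22.0%) and 4 lower (9.76%), where 16.5% of all tested genes were higher and 14.1% lower, so the members were not called much more often than genes at large. limma-voom called 10 higher (background 16.3%), adding *Dnah10*, and 8 lower (background 15.1%), adding *Dnaaf2*, *Drc1*, *Hydin* and *Cfap54*. The 9 higher genes were *Dnah9*, *Dnai2*, *Dnah7b*, *Spag1*, *Rsph9*, *Drc3*, *Ccdc39*, *Cfap70* and *Tekt2*, and the 4 lower were *Rsph3a*, *Ccdc40*, *Cfap126* and *Cfap300*. The median log2 fold change over all 58 genes was 0.04, against 0.06 over all genes tested.

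The third comparison set BMP4-treated against proliferating NSCs. Of the 41 genes tested, 30 were higher (73.2%) and 1 lower (2.44%), where 21.3% of all tested genes were higher and 15.4% lower. The 10 genes with means under 0.1 FPKM in bFGF/EGF and in bFGF/BMP4 held 9 of the 30, and 30 of all 58 genes is 51.7%. *Drc1* and *Armc2*, which also entered the test through their BMP4 values, were among the 30 too. limma-voom called 39 higher (background 21.6%) and 2 lower (background 16.4%), the latter being *Dnaaf2* and *Hydin*. The median log2 fold change was 1.27 over all 58 genes, against 0.10 over all genes tested, and 2.05 with fragment ratios or bounds for genes at the detection limit. Combining the calls of the 3 comparisons, 19 genes were called higher in BMP4 than in both other groups with no call between those groups. These 19 include the 9 genes with means under 0.1 FPKM in both other groups. With 0.1 added to each value, those 9 could not reach a 2-fold difference between the other groups, so their profile was largely set beforehand. Another 6 (*Dnai2*, *Dnah7b*, *Spag1*, *Drc3*, *Ccdc39* and *Cfap70*) were called higher in both day 6 groups than in bFGF/EGF with no call between the day 6 groups. The calls share libraries, and the difference between such profiles was not tested.

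BMP4 replicate 2 stood apart within its group by gene length. Genes with at least 10 kb of exon lay 0.20 lower in it (median log2 difference), and those of 3 to 6 kb lay 0.12 higher. The long genes *Dnah9* and *Dnah7b* each had their lowest BMP4 value there. Without this library 25 axoneme genes were called higher in BMP4 than in bFGF/BMP4, and the log2 fold changes of *Dnah7b* and *Cfap43*, neither of which was called, became 0.21 and -0.04.

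Regulators of motile ciliogenesis were compared next. *Foxj1* measured 7.87, 10.8 and 6.13 FPKM in bFGF/EGF, 10.3, 9.44 and 10.4 in bFGF/BMP4 and 61.2, 51.4 and 52.8 in BMP4, which lay far above both, with a log2 fold change of 2.45 ± 0.18 over bFGF/BMP4 (adjusted p = 1.6e-05, limma). Of 14 such regulators 10 were tested, with 5 higher in BMP4 than in bFGF/BMP4, *Ankrd66* (2.69 ± 0.38), *Foxj1*, *Ccno* (1.68 ± 0.33), *Rfx2* and *Rfx4*. *Mcidas*, *Gmnc* and *Jhy*, of which the first 2 drive multiciliated cell fate, had at most 3 fragments in any library. A list for centriole amplification, the making of the many basal bodies of a multiciliated cell, which in part also serves the ordinary centriole cycle, had 1 of 7 tested genes higher (*Ccno*) and 4 lower (*Ccdc78*, *Plk4*, *Stil* and *Sass6*). Of all tested genes, 8.41% were higher and 5.14% lower. The *Plk4* call was lost without BMP4 replicate 1 (-1.42, adjusted p = 0.051, limma), and that of *Sass6* without BMP4 replicate 3 (-0.94), bFGF/BMP4 replicate 2 (-0.89) or bFGF/BMP4 replicate 3 (-0.94). *Ccno* was also counted among the regulators. *Deup1* and *Cdc20b* of that list had 0 fragments in every library.

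Other axoneme genes outside the 58 were also mostly higher where called. Of 74 listed, 72 were found and 44 tested. Of the 44, 21 were higher in BMP4 than in bFGF/BMP4 (47.7%, against 8.41% of all tested genes), with a median log2 fold change of 1.05. Among the largest changes were those of *Dynlrb2*, a dynein light chain (3.18 ± 0.39), and *Enkur*, a microtubule inner protein (2.88 ± 0.36). Cytoplasmic dynein, whose motors carry cargo in all cells and along the cilium, had 3 of 14 genes higher (21.4%, against 8.41%), with a median of 0.30. They were *Dync1i1* (1.91 ± 0.31), *Dync2li1* (1.49 ± 0.17) and *Dync2i2* (1.06 ± 0.17). *Dync2i2* fell under the fold threshold without BMP4 replicate 2 (0.93) or bFGF/BMP4 replicate 2 (0.97). The primary cilia list of the study had 7 of 68 tested genes higher (10.3%, against 8.41% of all tested genes) and 2 lower, with a median of 0.44. *Rfx2* and *Rfx4*, 2 of the 7, were also counted among the regulators, and the largest changes were those of *Gli3* (lower), *Rpgr* and *Bbs7* (higher).

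Marker genes of cell types were set beside these results, each for BMP4 against bFGF/BMP4. In that comparison 8.41% of all tested genes were higher and 5.14% lower, which is the background for every marker list. Of 11 tested genes of the ependymal list, 10 were higher. One of these, *Dynlrb2*, was also counted above among the axoneme genes, and without it 9 of 10 were higher, with a median log2 fold change of 3.02, led by *Fam216b* (5.93 ± 0.34), *Tm4sf1* (4.0 ± 0.30) and *Acta2* (3.96 ± 0.34). That list summed to 711 to 881 FPKM in bFGF/EGF, 401 to 458 in bFGF/BMP4 and 1674 to 1884 in BMP4. *Vim* (means of 677, 167 and 892 FPKM), *Aqp4* (0.527, 212 and 778) and *Cd24a* (91.2, 2.43 and 36.5), which other neural cells also express, carried most of it. Without them and *Dynlrb2* the sums were at most 19.6 FPKM in bFGF/EGF, 53.0 to 62.5 in bFGF/BMP4 and 68.7 to 98.0 in BMP4. These sums still hold *S100b*, also an astrocyte marker, with means of 0.624, 55.1 and 40.1 FPKM in the same order. It made up most of the bFGF/BMP4 sum and was not called between the day 6 groups (-0.47 ± 0.24, adjusted p = 0.22, limma). *Tmem212* and *Sntn* of the ependymal list had 0 fragments in every library and so were not among the 11 tested genes. *Mia*, also untested, had 0, 1 and 4 fragments in bFGF/EGF, 1, 1 and 0 in bFGF/BMP4 and 0 in each BMP4 library. The astrocyte list, which shares *Aqp4* and *S100b* with it, had 5 of 8 genes higher and 1 lower, with sums of 222 to 300.3, 1056 to 1497 and 4137 to 4887 FPKM, and *Gfap* (7.03 ± 0.17), *Aqp4* (1.88 ± 0.17) and *Gja1* (1.68 ± 0.17) changed most among those higher. The NSC list had 4 of 7 higher, with *Prom1*, *Nes* and *Sox9* leading, and sums of 1029 to 1177, 528 to 615 and 753 to 941 FPKM.

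Of the choroid plexus list, *Folr1* was higher and *Aqp1* lower among 4 tested, with sums of at most 6.74 FPKM, and *Kcnj13*, *Clic6* and *Kl* had at most 3 fragments in every library. The oligodendrocyte list had 2 of 8 tested genes lower (*Olig2* and *Olig1*), with sums of 1582 to 2292, 1358 to 1829 and 276 to 471 FPKM. The neuron and neuroblast list had 4 of 9 higher, with *Tubb3*, *Dcx* and *Snap25* leading, and 1 lower, with sums of 112 to 132, 63.7 to 70.1 and 167 to 240.2 FPKM. *Dcx* measured 1.99 FPKM in BMP4 replicate 1 but 0.342 and 0.384 in the other BMP4 libraries, and without replicate 1 its log2 fold change went from 1.82 to 1.10 and its call was lost (adjusted p = 0.062, limma), as it was without any 1 of the 6 libraries of the other groups. Microglial and vascular lists summed to at most 1.75 and 5.54 FPKM, with 1 of 2 (*Tmem119*) and 2 of 3 (*Pdgfrb* and *Kdr*) tested genes higher. The part of any of these cell types in the axoneme result was not tested.

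Promoter windows are shown because RFX and forkhead proteins are the textbook regulators of these genes and many members moved together. The 250 bases upstream of the start of the GENCODE vM39 canonical transcript were read from GRCm39 (mm39) and searched on both strands for 3 short motifs. These were the core of the site bound by RFX factors, GTTGCC, a longer form of that site, GTTGCCATG, which contains the core, and a site bound by forkhead proteins, GTAAACA. The core was found in 13 of 58 member promoters (22.4%) and in 9.45% of 21770 protein-coding promoters. It was found in 5 of the 26 genes higher in BMP4 than in bFGF/BMP4 (19.2%) and in 8 of the other 32 (25%). The longer form was found in 1 member, *Dnah1*, and in 0.441% of all promoters, and the forkhead site in 2 members (*Cfap43* and *Ak7*, 3.45%) and 2.72% of all. Each sequence is a stretch around 1 match, written 5′ to 3′ along the gene, with the RFX core, on either strand, in capitals. The first 4 genes were higher in BMP4 than in bFGF/BMP4, and the paralogues *Dnah7a* and *Dnah7b* follow.
Dnah1 (chr14:31046090-31046149, minus strand): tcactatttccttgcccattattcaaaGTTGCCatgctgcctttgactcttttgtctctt
Drc7 (chr8:95781466-95781508, plus strand): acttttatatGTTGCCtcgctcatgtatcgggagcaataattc
Cfap300 (chr9:8042966-8043025, minus strand): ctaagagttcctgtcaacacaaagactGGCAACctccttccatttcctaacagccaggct
Cfap44 (chr16:44215116-44215151, plus strand): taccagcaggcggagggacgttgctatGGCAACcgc
Dnah7a (chr1:53746111-53746170, minus strand): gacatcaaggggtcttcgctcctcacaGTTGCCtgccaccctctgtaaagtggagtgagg
Dnah7b (chr1:46105823-46105882, plus strand): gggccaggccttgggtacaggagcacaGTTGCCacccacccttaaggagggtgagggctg
In *Dnah1* the capitals start 207 bases before the transcript start, in *Drc7* 240, in *Cfap300* 118 and in *Cfap44* 9. They start 138 bases before the transcript start of *Dnah7a* and 163 before that of *Dnah7b*.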

How the data were processed

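RNA-seq of 9 libraries from mouse NSCs was deposited as FPKM per gene, normalised by the authors for gene length and library size, with Ensembl identifiers. The submitters' processing notes name fastp 0.19.7, HISAT2 2.0.5, featureCounts 1.5.0-p3 and the mm39 build. The annotation release, use of strand and FPKM program are not given in the sources used here. The authors tested counts with DESeq2, whereas the deposited FPKM values were tested here with limma 3.58.1 (R 4.3.3) as log2(FPKM + 0.1), with trend, genes of mean FPKM of at least 0.1, and all 3 groups in 1 fit. Genes were called at an adjusted p of at most 0.05 and a fold of at least 2.

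Whole fragment numbers were rebuilt from the FPKM steps for all 30860 genes above 0 (100%, within 0.02 of a whole number; 984 genes needed the gene length), giving 15895146 to 17422846 fragments per library. They served the detection limit of 3 fragments, the exact 95% counting intervals and a limma-voom fit on genes with at least 10 fragments summed, chosen after seeing the data. Intervals and limits cover counting error only.

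Genes were named from GENCODE vM39 (54749 identifiers), which also gave exon overlaps, coding sequences and promoters. The authors' gene models may differ from it. The fragment rebuilding and the fits were tested on simulated data, and the other steps were not. At an adjusted p of at most 0.05, limma recovered 26.3% of simulated 2-fold and 68.4% of simulated 4-fold changes. For limma-voom these shares were 56.4% and 86.2%. Recovery was counted without the fold threshold that calls also need, which can only lower these shares. False calls numbered 10 among 20178 genes with limma and 7 among 21928 with limma-voom. The simulation gave every gene the same dispersion, unlike real data. The members and lists were chosen with earlier results of these data known. Values in every library were printed for the up to 5 called members of each part with the largest change in BMP4 against bFGF/BMP4, the member of highest mean, members called lower and the paralogues, and up to 3 genes were named per list. No set test was run. Alternatives were another pseudocount, other filters, TPM and median-ratio scaling, a fit on the 2 groups compared, a replicate block, limma-voom and leaving out each library. Lists covered other axoneme genes, ciliogenesis regulators, centriole amplification, cytoplasmic dynein, the study's primary cilia genes, and markers of ependymal, choroid plexus, neural stem, astrocyte, oligodendrocyte, neuronal, microglial and vascular cells. Values of a few genes on the comparison lists are not reported here.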

Additional observations from a re-analysis of the deposited data

How the results depend on the processing

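With a pseudocount of 1, 14 members were higher in BMP4 than in bFGF/BMP4, 0 higher and 0 lower in bFGF/BMP4 than in bFGF/EGF (11 and 7 at an unadjusted p under 0.05, limma), and 15 higher and 0 lower in BMP4 than in bFGF/EGF (33 and 1 unadjusted). With genes of mean FPKM of at least 1 the counts were 9, 5 and 2, and 13 and 0 (0 lower unadjusted), 17 members being tested. limma-voom raised the members lower in bFGF/BMP4 than in bFGF/EGF to 7, or 8 with at least 10 fragments, and those lower in BMP4 than in bFGF/EGF to 2 with at least 10 fragments. A detection limit of 10 fragments left 27, 28 and 8 members undetected in bFGF/EGF, bFGF/BMP4 and BMP4.

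Medians for BMP4 over bFGF/BMP4 moved as follows under a pseudocount of 1, a mean FPKM of at least 1, limma-voom, and limma-voom with at least 10 fragments: 0.42, 1.32, 2.35 and 1.88 for all members; 0.07, 0.79, 0.82 and 0.82 for the dynein part; 0.67, 0.81, 2.11 and 2.10 for the nexin-dynein complex and ruler; 0.45, 2.30, 2.53 and 2.47 for the remainder. For the spokes they were 0.75 with a pseudocount of 1 and 2.20 with limma-voom with at least 10 fragments, and for the central pair 4.44 and 2.19 in the limma-voom fits. The median of all members for bFGF/BMP4 over bFGF/EGF became 0.78 at a mean FPKM of at least 1 and 0.14 and 0.14 in the limma-voom fits, and for BMP4 over bFGF/EGF 0.49, 2.14, 2.51 and 2.18. These fits test fewer genes or use another scale.

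Leaving out 1 library gave 25 to 27 members higher in BMP4 than in bFGF/BMP4, 8 to 10 higher and 3 to 5 lower in bFGF/BMP4 than in bFGF/EGF, and 30 to 31 higher and 1 lower in BMP4 than in bFGF/EGF. The median of the remainder ranged from 1.55 to 1.95. *Dnah7b*, not called in BMP4 over bFGF/BMP4, took 0.00 with a pseudocount of 1 and -0.18 to 0.21 over the omissions (0.02 without bFGF/BMP4 replicate 2), and *Cfap43* -0.04 to 0.30. Deviations from the group means correlated at r of -0.084 to 0.125 between libraries with the same replicate number. Between libraries with different numbers r was -0.154 to 0.081. With 3 libraries per group this cannot decide whether the numbers mark pairs. A replicate block lost the *Tekt1* call alone (1.49, adjusted p = 0.083, limma), giving 25 members higher in BMP4 than in bFGF/BMP4. No level filter, and a fit on only the 2 groups compared, each lost *Tekt1* in BMP4 over bFGF/BMP4 and *Cfap126* in bFGF/BMP4 over bFGF/EGF. TPM and median-ratio scaling lost no member call and added *Dnaaf2* lower in bFGF/BMP4 than in bFGF/EGF (-1.01 and -1.02), making 5.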
